A study of Mus musculus with 6 samples.

Results

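Ribosomal protein pseudogene copies in dental pulp were compared between WT and MMP13KO mice. Copies were chosen by symbol, which starts with Rpl or Rps and goes on to a -ps name, and by estimated counts summing to 20 or more over the 6 samples. Of 53342 genes in the deposited table, 288 carry such a symbol and 158 reached the sum. Just inside were Rpl7a-ps2 at 20.3, Rpl31-ps24 at 21.4 and Rpl27-ps2 at 21.4 counts, and just outside were Rpl26-ps2 at 19.8, Rps2-ps5 at 19.7 and Rps4l-ps at 19.2. Among the 130 copies left out, 3 were at 0 in every sample.

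Pulp tissue was taken at 3 months of age from 3 male WT mice (replicates 2, 4 and 5) and 3 MMP13KO mice (replicates 1, 2 and 6), Mmp13-/- males with a constitutive homozygous loss of the collagenase gene Mmp13. Both genotypes are labelled C57BL/6, no treatment is named, and whether the WT mice were littermates of the knockouts is not given in the sources used here. The labels' protocols name molars for both genotypes and a column kit, whereas the study's methods name incisors and TRIzol. The sample titles name molars for WT only and no tooth for MMP13KO. Each library is described there as an independent biological sample.

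Ribosomal proteins build the large (Rpl) and small (Rps) ribosomal subunits, and every cell makes their mRNAs in large amounts. Reverse transcription of such mRNAs in the germ line has left many intronless copies scattered over mammalian genomes. Most are annotated as processed pseudogenes, usually lack a promoter of their own and stay close in sequence to the parent gene, so that a short read can match parent and copy equally well or be told apart by a single base.

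Of the 158 copies, 152 are annotated as pseudogenes and 6 as protein coding. 94 derive from large-subunit genes and 64 from small-subunit genes, and together they trace to 50 parent genes by name. The most copied parents were Rpl31 with 9 copies and Rpsa with 8. Positions in GENCODE M21 (build GRCm38) were found for 157 copies, on 20 chromosomes, and 155 of these have a single exon. 88 overlap no other gene, 45 lie in an intron of a gene on the opposite strand and 21 in an intron on the same strand. Exons of another gene are overlapped by 5. The strand setting of the counting is not given in the sources used here, so reads of a copy and of an overlapping gene cannot be told apart. Over the aligned length the 154 copies that align to a transcript of the parent were 75.1% to 100% identical to it, with a median of 98.5%. 57 copies were at least 99% identical and 14 fully identical. The split of counts between such copies and their parents is uncertain, because a read can match both. Estimated counts can be fractional, and 93.5% of the values above 0 for these copies were further than 0.01 from a whole number, against 89.0% over all genes. From which of the near-identical genes the reads came was not tested.

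Several of the copies that differed most between the genotypes have 1 of 5 parents, Rpl34, Rps15a, Rps13, Rpl3 and Rpl30. Sequences of copies of the first 4 are shown here because they share single-base differences from the parent. Each line gives a stretch of the parent's coding sequence in GENCODE M21 transcripts, 5′ to 3′, and the matching stretch of the copies. Capitals in a copy mark bases that differ from the parent, and capitals in the parent mark every position at which a copy shown differs. Substitutions are written with the parent's base, the position counted from 1 at the A of the start codon, and the copy's base. Coordinates are those of GRCm38.

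Rpl34 is encoded on chr3:130726831-130730398 (minus strand). Rpl34-ps1 differs from its coding sequence at 2 positions, T132C and C318G, and Rpl34-ps2 has both among 10 substitutions. The stretches shown are chr6:71124700-71124939 (plus strand) and chr13:116153871-116154110 (plus strand).
Rpl34: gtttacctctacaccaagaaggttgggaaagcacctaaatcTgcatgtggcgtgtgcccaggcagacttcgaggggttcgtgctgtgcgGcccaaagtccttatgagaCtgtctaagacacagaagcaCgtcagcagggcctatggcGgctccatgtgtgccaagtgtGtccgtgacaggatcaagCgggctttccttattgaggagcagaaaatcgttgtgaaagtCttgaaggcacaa
Rpl34-ps1: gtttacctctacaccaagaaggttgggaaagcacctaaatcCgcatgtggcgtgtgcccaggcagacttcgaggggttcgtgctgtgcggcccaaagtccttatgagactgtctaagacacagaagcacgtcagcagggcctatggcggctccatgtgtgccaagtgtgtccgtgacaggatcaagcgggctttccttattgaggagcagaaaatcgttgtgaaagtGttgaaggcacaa
Rpl34-ps2: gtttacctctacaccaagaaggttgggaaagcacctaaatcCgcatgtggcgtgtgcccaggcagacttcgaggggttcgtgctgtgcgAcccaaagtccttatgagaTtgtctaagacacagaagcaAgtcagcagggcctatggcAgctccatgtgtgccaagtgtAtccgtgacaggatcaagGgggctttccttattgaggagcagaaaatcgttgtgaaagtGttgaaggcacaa

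Rps15a is encoded on chr7:118104372-118116188 (minus strand) and has 6 copies. T150C is carried by 5 of them, all but Rps15a-ps8. The substitutions C7G and G8A, outside the stretch shown, are shared by Rps15a-ps7 and Rps15a-ps8. The stretches are chr2:152185494-152185583 (minus), chr4:150847215-150847304 (plus), chr5:105797524-105797613 (minus), chr11:6172847-6172936 (minus) and chr4:53791267-53791356 (minus).
Rps15a: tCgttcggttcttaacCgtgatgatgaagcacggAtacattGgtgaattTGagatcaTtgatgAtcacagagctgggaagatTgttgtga
Rps15a-ps7: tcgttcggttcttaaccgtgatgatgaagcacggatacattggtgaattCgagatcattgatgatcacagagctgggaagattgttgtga
Rps15a-ps3: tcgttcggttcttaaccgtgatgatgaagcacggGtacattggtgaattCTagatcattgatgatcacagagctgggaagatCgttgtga
Rps15a-ps5: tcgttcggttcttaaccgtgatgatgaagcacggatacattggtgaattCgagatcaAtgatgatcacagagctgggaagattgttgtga
Rps15a-ps6: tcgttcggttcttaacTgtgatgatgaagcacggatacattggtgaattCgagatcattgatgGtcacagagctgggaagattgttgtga
Rps15a-ps8: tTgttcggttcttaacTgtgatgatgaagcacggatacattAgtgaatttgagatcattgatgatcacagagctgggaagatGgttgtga

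Rps13 is encoded on chr7:116331505-116334195 (minus strand). T411C is found in 3 of its 5 copies, Rps13-ps1, Rps13-ps4 and Rps13-ps5, and A429G in Rps13-ps1 and Rps13-ps6. Rps13-ps2 matches the coding sequence without a substitution. The stretches are chr8:87048080-87048169 (plus), chr7:88530449-88530538 (minus) and chr8:119602176-119602265 (minus).
Rps13: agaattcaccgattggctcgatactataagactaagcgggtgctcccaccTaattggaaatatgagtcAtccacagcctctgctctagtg
Rps13-ps1: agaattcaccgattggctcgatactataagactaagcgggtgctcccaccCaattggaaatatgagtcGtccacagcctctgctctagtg
Rps13-ps2: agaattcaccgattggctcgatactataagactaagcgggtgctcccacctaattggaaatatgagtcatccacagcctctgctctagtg
Rps13-ps4: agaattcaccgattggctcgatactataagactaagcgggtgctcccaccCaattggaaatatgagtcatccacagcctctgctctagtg

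Rpl3 is encoded on chr15:80077791-80091868 (minus strand), and both copies are on the X chromosome. Rpl3-ps1 carries C57A and T786C and no other substitution, and Rpl3-ps2 carries T786C among 10. The stretches are chrX:13203312-13203401 (plus) and chrX:74171395-74171484 (plus).
Rpl3: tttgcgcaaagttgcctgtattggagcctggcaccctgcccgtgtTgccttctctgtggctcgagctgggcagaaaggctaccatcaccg
Rpl3-ps1: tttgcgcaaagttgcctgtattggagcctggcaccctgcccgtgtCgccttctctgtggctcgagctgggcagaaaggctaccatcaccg
Rpl3-ps2: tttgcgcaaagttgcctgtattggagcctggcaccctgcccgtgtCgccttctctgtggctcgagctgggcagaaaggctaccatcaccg

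The 6 substitutions T132C, C318G, T150C, T411C, A429G and T786C were picked after the expression values had been seen. They fall on the third base of a codon and, by the standard genetic code, leave the encoded residue as it is. Of the other shared substitutions, C7G and G8A in Rps15a-ps7 and Rps15a-ps8 and G59A in a pair of Rps13 copies do neither. C69T, C117T, A135G, T291G and T330C, each in a pair of Rps15a copies, do both. Nothing is read from the codon positions of the 6.

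Library totals ranged from 28442936 to 29980236 estimated counts in WT and from 21561420 to 26547121 in MMP13KO. Mmp13 stood at 1009, 1072 and 826 normalized counts (counts scaled by TMM factors to the mean library) in WT and at 8.85, 30.1 and 64.0 in MMP13KO, which matches the labels. The MMP13KO libraries stood apart from WT in counts outside the pulp's own genes. Satellite repeat genes took 0.0331 to 0.0445% of counts in WT and 5.87%, 10.3% and 46.1% in MMP13KO 1, 2 and 6, and odorant and vomeronasal receptor genes summed to 17.8 to 20.8 CPM (a count relative to the total of its library) in WT against 308 to 1197. Summed marker CPM was 35448 to 42828 in WT and 8774 to 15523 in MMP13KO for odontoblasts, 25045 to 33473 and 3724 to 12867 for skeletal muscle, 834 to 1332 and 1633 to 4521 for erythroid cells, 127 to 266 and 553 to 1926 for neutrophils, and 1419.5 to 4374 and 2975 to 6121 for ameloblasts. Over 2-fold, 4 of 8 odontoblast, 0 of 6 muscle, 4 of 6 erythroid, 7 of 7 neutrophil and 0 of 6 ameloblast markers were called higher and 2, 5, 0, 0 and 0 lower, and no marker was at 0 in all samples. In such bulk tissue fewer cells of a type and less RNA per cell cannot be told apart, and the part of these differences in the results below was not tested.

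Some copies of ribosomal protein genes were called higher in MMP13KO pulp and none lower in the main fit, a direction that the filter sets in part. The edgeR filter on low counts passed 117 of the 158 copies, and 35 of these were called higher (over 2-fold, Benjamini-Hochberg adjusted p under 0.05 by the quasi-likelihood test of edgeR fitted to all genes), a share of 29.9% against 20.4% of all 24534 genes tested. No copy was called lower, against 9.68% of all genes, while 2 copies were lower at an unadjusted p under 0.05. DESeq2 and limma called 0 copies lower as well, and only without MMP13KO 1 were 2 copies called lower, Rps13-ps2 and Rps2-ps11. With 10 counts required in every sample, 15 copies were called higher, and in a test against a 2-fold change itself 21. At any fold, 48 copies passed as higher and 0 as lower, against 27.3% and 24.3% of all genes. The median log2 fold change was 0.76 over the copies and 0.10 over all genes tested. That order turned where more low genes entered: it was 0.836 against 1.11 in DESeq2 and 0.767 against 1.30 without a filter. In 67 of the 117 copies (57.3%) every MMP13KO sample lay above every WT sample, against 31.8% of all genes, and in 5 every MMP13KO sample lay below, against 29.1%. The filter passes a copy when at least 3 samples reach 0.364 CPM, and 22 of the 117 copies passed through MMP13KO samples alone and so had to be higher there. They held 15 of the 35 calls. Of the 95 copies with a WT sample at that level 20 were called. The 20.4% of all genes also includes genes that passed through MMP13KO alone, and the share without those genes is not given here. The distance between 29.9% and 20.4% is therefore not read as a result about the copies. The same holds for the medians, the shares without overlap and the shares called lower, which include the same 22 copies. The 41 copies that did not pass summed to 20.3 to 54.9 counts, and 38 had the higher mean in MMP13KO. The share over other genes below the filter is not given here, so the 38 are not read as a result about the copies.

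Of the 79 ribosomal protein genes from which such copies derive, 24 were called higher and 0 lower over 2-fold, and 45 and 6 at any fold, with a median log2 fold change of 0.66. After correction for GC content 43 were called higher. No ribosomal protein gene was called lower over 2-fold by edgeR, DESeq2 or limma, and 6 were lower at an unadjusted p under 0.05. Large-subunit genes had 14 of 47 called higher and small-subunit genes 10 of 32, and among copies 24 of 68 large-subunit and 11 of 49 small-subunit ones were called. Processed pseudogenes of other genes had 321 of 1478 (21.7%) called higher and 39 lower, with a median of 0.46. The share of copies called higher was near that of the ribosomal protein genes themselves, 30.4%. However, 15 of the 35 calls were in copies that passed the filter through MMP13KO alone, as no ribosomal protein gene did. Among the other 95 copies, 20 were called.

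Summed over the 158 copies, counts made up 0.0222%, 0.0201% and 0.0229% of the library in WT and 0.0644%, 0.0525% and 0.0340% in MMP13KO. The means were 0.0217% ± 0.00148 and 0.0503% ± 0.0154 (SD, n = 3 each), and the genotypes did not overlap. The difference of 0.0286 percentage points became 0.0488 with satellite genes and the 10 most abundant genes of each sample left out of the total. With 3 samples against 3, an exact two-sided permutation test cannot give a p below 0.1. Relative to the ribosomal protein genes of the same library, the copies stood at 2.29, 2.43 and 2.35 counts per 100 in WT and 3.59, 3.44 and 3.39 in MMP13KO. This ratio needs no scaling factor, and its genotypes did not overlap either. The 21 copies of Rpl34, Rps15a, Rps13, Rpl3 and Rpl30 held 0.238 to 0.260 counts per 100 ribosomal protein gene counts in WT and 1.07 to 1.36 in MMP13KO, whereas the other 137 copies held 2.06 to 2.17 and 2.09 to 2.32, which overlap. The 5 parents were singled out after their values were seen, so this split is given without a test.

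**Figure D1:**
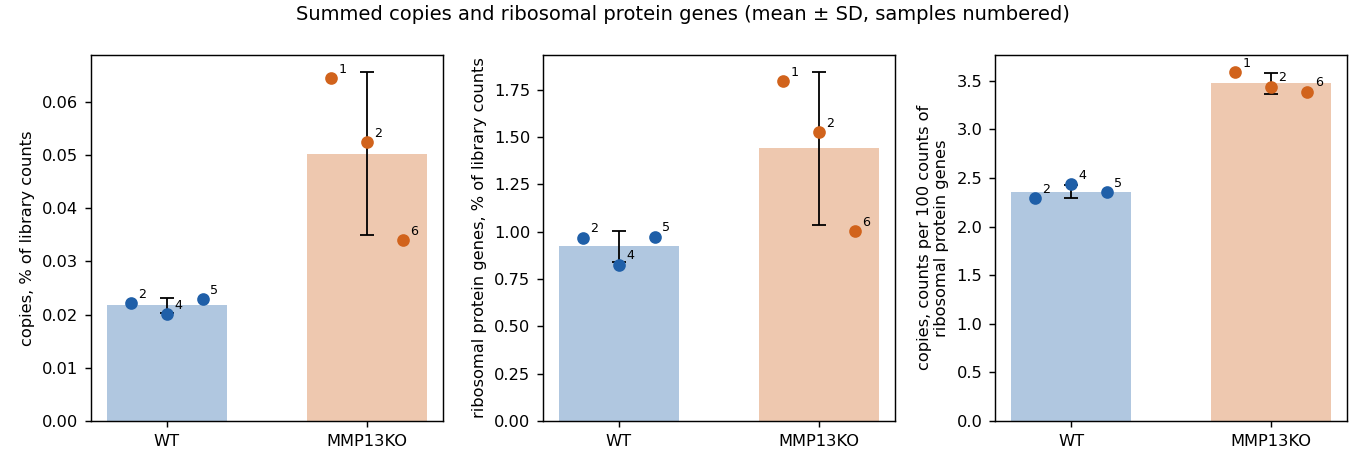
Share of library counts held by the 158 copies (left, %), by the 79 ribosomal protein genes (middle, %), and copies per 100 ribosomal protein gene counts (right), with bars for means, error bars for SD and numbered points for samples. In the right panel WT samples lie between 2.29 and 2.43 and MMP13KO samples between 3.39 and 3.59.

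Rpl34-ps1 (ENSMUSG00000068396, chr6:71124610-71124963), a copy of the large-subunit gene Rpl34 that overlaps no other gene, stood at 6.55, 7.53 and 4.93 normalized counts in WT and at 835, 891 and 726 in MMP13KO. All 3 MMP13KO samples lay at least 96.5-fold above the highest WT sample. Its log2 fold change was 6.97 ± 0.22 (SE, edgeR). In WT it lay below the filter level of 0.364 CPM in every sample. It thus passed the filter through MMP13KO alone and had to be higher there, so no p-value is given. Rpl34 itself stood at 873, 728 and 967 and 1755, 1785 and 1532, a log2 fold change of 0.98 ± 0.15 (edgeR, adjusted p = 6.1e-04). Within each library, Rpl34-ps1 had 0.751, 1.03 and 0.511 counts per 100 Rpl34 counts in WT and 47.5, 49.9 and 47.4 in MMP13KO. The 3 MMP13KO ratios lie close together. No p-value is given for this ratio either, because the copy was known from earlier results on these data. Rpl34-ps2 (chr13), the other copy, was low at 5.23, 0 and 0.666 in WT and 25.5, 24.3 and 32.4 in MMP13KO (log2 fold change 3.53 ± 0.84). It too passed the filter through MMP13KO alone. Of all counts on Rpl34 and its 2 copies, the copies held 1.33, 1.02 and 0.576% in WT and 32.9, 33.9 and 33.1% in MMP13KO.

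Rps15a, a small-subunit gene, was itself called higher, at 961, 791 and 1024 normalized counts in WT and 3404, 2979 and 2736 in MMP13KO (log2 fold change 1.72 ± 0.16; edgeR, adjusted p = 7.9e-05). Rps15a-ps7 (ENSMUSG00000081087, chr2:152185291-152185682) rose from 3.46, 2.64 and 3.00 to 515, 451 and 419 (log2 fold change 7.12 ± 0.25). It passed the filter through MMP13KO alone and so had to be higher there, and no p-value is given. Per 100 Rps15a counts it stood at 0.360, 0.333 and 0.293 in WT and 15.1, 15.1 and 15.3 in MMP13KO, so that the 3 knockout libraries lay close together. Rps15a-ps3, Rps15a-ps5 and Rps15a-ps6 rose as well, all above their WT range in every MMP13KO sample. Rps15a-ps3 stood at 0.630, 0 and 4.99 in WT and 44.7, 40.1 and 39.7 in MMP13KO, with a log2 fold change of 4.33 ± 0.77. Rps15a-ps5 went from 5.29, 6.32 and 5.82 to 65.4, 64.0 and 62.0 (3.36 ± 0.37). Rps15a-ps3 and Rps15a-ps5 also passed the filter through MMP13KO alone. Rps15a-ps6 went from 7.52, 16.2 and 12.1 to 88.5, 102 and 101.2 (3.02 ± 0.34), and its ratio to the parent, 0.782, 2.05 and 1.18 per 100 counts in WT and 2.60, 3.42 and 3.70 in MMP13KO, also separated the genotypes. All of these copies carry T150C. Rps15a-ps4, which also has T150C, did not pass the filter and stood at 4.87, 6.80 and 6.94 and 10.1, 7.01 and 11.9. Of the counts on Rps15a and its 6 copies, the copies held 2.22, 3.88 and 3.11% in WT and 18.1, 18.6 and 19.6% in MMP13KO.

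Rps15a-ps8 (ENSMUSG00000084403, chr4:53791070-53791456) was the only copy that met the on/off rule, with 3 counts or fewer in every sample of one genotype and 10 or more in every sample of the other. It was at 0 in all 3 WT samples and had 33.9, 18.6 and 20.2 estimated counts in MMP13KO. Against a floor of 3 counts per library, the MMP13KO mean was at least 9.07-fold higher. The copy passed the filter through its MMP13KO samples alone, so it had to be higher there, and no test is given. It is the copy of Rps15a least like the parent, with 30 substitutions and an identity of 92.2%. Among all genes tested, 3.49% were off in WT and on in MMP13KO by the same rule and none the other way round, so 1 of 117 copies is not above that background. Rps15a-ps7 and Rpl34-ps1 missed the rule because some WT samples had more than 3 counts. They were the 2 copies whose lowest MMP13KO value was at least 10 times the highest WT value, a criterion added after the data were seen that 0.355% of all genes met. No copy met it in the other direction, against 0.0122% of all genes. The on/off count rests on single libraries: without WT 2, 5 copies met the rule (Rps15a-ps8, Rps15a-ps7, Rpl34-ps2, Rps15-ps2 and Rpl31-ps11), without WT 5, 3 did, and without MMP13KO 1 or MMP13KO 2, 2 did. With 20 counts required for on, none did.

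**Figure D2:**
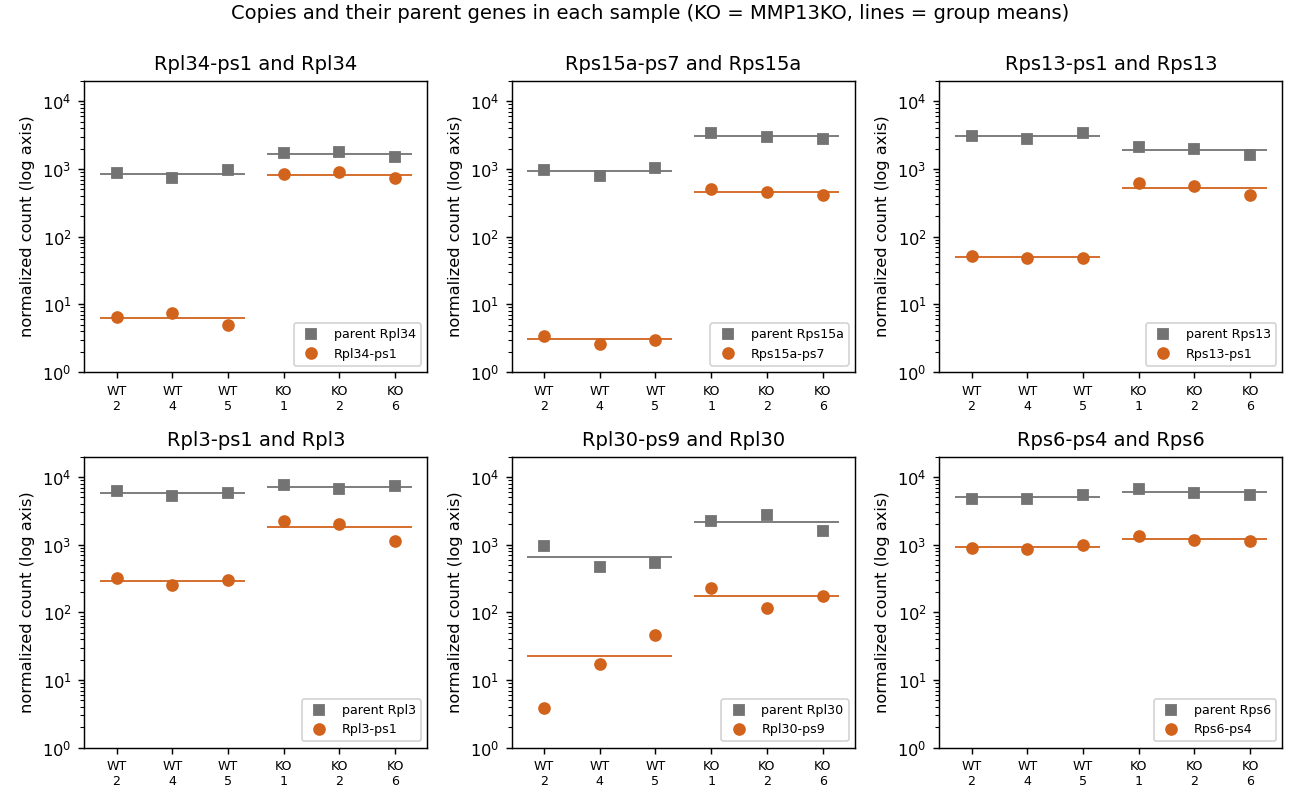
Normalized counts (log axis) of 6 copies (circles) and their parent genes (squares) in each WT and MMP13KO sample, with group means as lines. Rpl34-ps1, Rps15a-ps7 and Rps13-ps1 lie far higher in every MMP13KO sample than in any WT sample, by more than their parents, and Rps6-ps4 stays between 18.1 and 21.2 counts per 100 Rps6 counts.

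Rps13-ps1 (ENSMUSG00000066362, chr8:87047689-87048226) rose although its parent fell. The small-subunit gene Rps13 stood at 3035, 2794 and 3389.7 normalized counts in WT and 2114, 1972 and 1624 in MMP13KO (log2 fold change -0.69 ± 0.16; edgeR, adjusted p = 0.0048). With library totals alone as scaling, Rps13 no longer passed the test, at a log2 fold change of -0.56. Rps13-ps1 went from 52.3, 48.6 and 48.7 to 620.5, 561 and 413 (log2 fold change 3.41 ± 0.20; edgeR, adjusted p = 8.5e-06), or from 1.72, 1.74 and 1.44 to 29.4, 28.4 and 25.4 counts per 100 Rps13 counts. No other copy of Rps13 was called. Rps13-ps2 stood at 58.6, 67.2 and 60.7 in WT and 48.3, 36.2 and 20.6 in MMP13KO (log2 fold change -0.79 ± 0.34; edgeR, adjusted p = 0.078). Rps13-ps4 stood at 56.4, 62.5 and 66.7 and 79.7, 65.1 and 53.0, with a log2 fold change of 0.10 ± 0.26, and Rps13-ps5 had one of -0.15 ± 0.40. Neither passed the test, and the sign of each depends on the scaling or on the samples kept. Relative to Rps13, Rps13-ps4 had 1.86, 2.24 and 1.97 counts per 100 in WT and 3.77, 3.30 and 3.26 in MMP13KO, which do not overlap, while Rps13-ps2 had 1.93, 2.40 and 1.79 and 2.28, 1.84 and 1.27, which do. Rps13-ps4 shares T411C with Rps13-ps1 but not A429G, and Rps13-ps2 has neither. Rps13-ps5, at a log2 fold change of -0.15, also carries T411C, and Rps13-ps6 carries A429G. Whether the changes follow these substitutions was not tested. Parent and copies together summed to 3242, 3009 and 3608 in WT and 2915, 2666 and 2153 in MMP13KO, of which the copies held 6.39, 7.14 and 6.05% and 27.5, 26.1 and 24.6%.

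Rpl3-ps1 (ENSMUSG00000084349, chrX:13202571-13203780) copies Rpl3, whose product reaches towards the peptidyl transferase centre of the large subunit. It was among the most abundant copies, at 322, 252 and 305 normalized counts in WT and 2261, 2054 and 1145 in MMP13KO (log2 fold change 2.64 ± 0.25; edgeR, adjusted p = 8.0e-05). Rpl3 stood at 6205, 5198 and 5895 and 7594, 6724 and 7469 and did not pass the test (log2 fold change 0.33 ± 0.16; edgeR, adjusted p = 0.11), though it did under 4 alternatives, at 0.46 to 0.77. Rpl3-ps2 (chrX:74170653-74171866) went from 56.3, 53.3 and 44.2 to 472, 409 and 231 (log2 fold change 2.85 ± 0.28; edgeR, adjusted p = 9.4e-05). Unlike Rpl34-ps1 and Rps15a-ps7, both copies were lower in MMP13KO 6 than in MMP13KO 1 and 2 relative to the parent. Rpl3-ps1 had 5.19, 4.85 and 5.18 counts per 100 Rpl3 counts in WT and 29.8, 30.5 and 15.3 in MMP13KO 1, 2 and 6. For Rpl3-ps2 the same ratio was 0.908, 1.03 and 0.749 and 6.22, 6.08 and 3.09. In both copies MMP13KO 6 thus lies between WT and the other knockout samples, at close to 50% of their ratio.

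Rpl30-ps9 (ENSMUSG00000085791, chrX:105278637-105278981) and Rpl30-ps10 (ENSMUSG00000083411, chrX:71803688-71804034) copy the large-subunit gene Rpl30 and showed a different pattern, with WT samples that differed among themselves. Rpl30-ps9 stood at 3.91, 17.5 and 46.2 normalized counts in WT samples 2, 4 and 5 and at 227.3, 115 and 177 in MMP13KO 1, 2 and 6 (log2 fold change 2.95 ± 0.59; edgeR, adjusted p = 0.0025). Rpl30-ps10 stood at 4.25, 9.44 and 38.2 and 164, 83.0 and 117 (2.81 ± 0.60). The parent rose as well, from 968, 466 and 529 to 2211, 2723 and 1574 (1.73 ± 0.29). Relative to Rpl30 the genotypes overlapped: Rpl30-ps9 had 0.404, 3.76 and 8.74 counts per 100 in WT and 10.3, 4.23 and 11.2 in MMP13KO. WT 5 resembled MMP13KO 1 and 6 in this ratio, WT 4 resembled MMP13KO 2, and WT 2 lay lowest. Rpl30-ps10 followed the same order, with 0.439, 2.02 and 7.23 and 7.41, 3.05 and 7.43. The 6 copies together held 3.23, 7.61 and 17.6% of the family's counts in WT and 16.6, 8.23 and 17.3% in MMP13KO. In order of this ratio the samples of the genotypes are mixed, which is not the case for Rpl34-ps1, Rps15a-ps7, Rps13-ps1 or the Rpl3 copies.

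**Figure D3:**
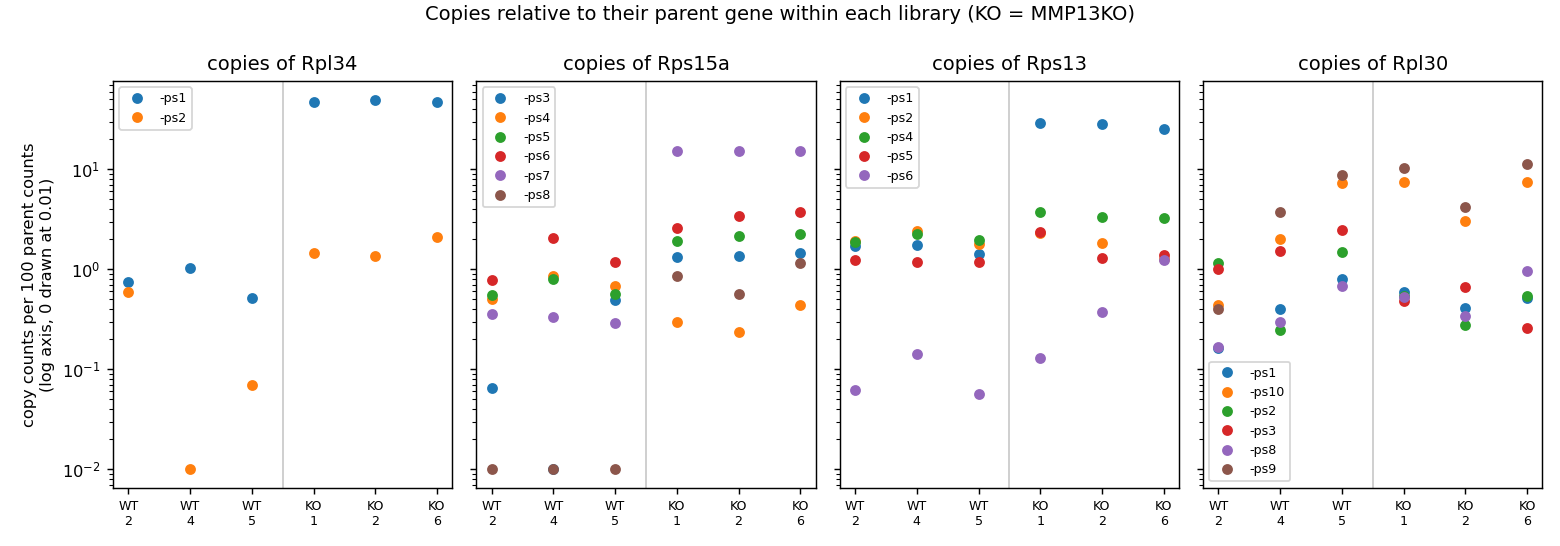
Counts of each copy per 100 counts of its parent (log axis, 0 drawn at 0.01) in each WT and MMP13KO (KO) library, for the copies of Rpl34, Rps15a, Rps13 and Rpl30. Rpl34-ps1, Rps15a-ps7 and Rps13-ps1 split the genotypes with little spread, whereas Rpl30-ps9 and Rpl30-ps10 range from 0.404 and 0.439 in WT 2 up to 8.74 and 7.23 in WT 5.

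The log2 fold change of a copy lay within 0.5 of the parent's in 68 of 117 tested copies and within 1 in 93, and 15 lay more than 1 above and 9 more than 1 below. Of the 15 above, 12 are copies of the 5 parents described, and the others include Rps15-ps2 (difference of 1.94) and Rpl7a-ps9 (1.28), both called higher. These and the copies of the 5 parents beyond the naming rule were picked after their values were seen. Across the 117 copies the changes of copy and parent had a Pearson r of 0.50 and a Spearman rho of 0.60, and across the 55 copies at least 99% identical to the parent a rho of 0.77. These are descriptions across genes that share libraries, parents and, in part, reads. The median distance from the parent's change was 0.20 log2 units at 99% identity or more, 0.55 from 97% to under 99% (35 copies) and 0.64 below 97% (25 copies). Where the parent was called higher, 24 of 39 copies were called, and where it was not, 11 of 78. These counts too are only descriptions, because copy and parent can share reads and some called copies passed the filter through MMP13KO alone.

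**Figure D4:**
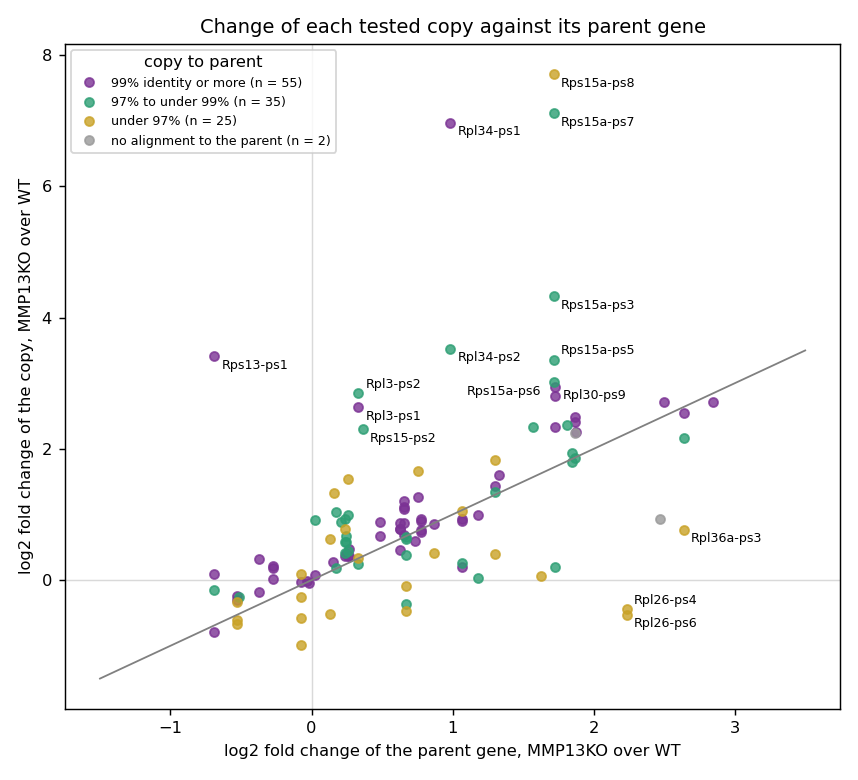
Log2 fold change (MMP13KO over WT) of each of the 117 tested copies against that of its parent gene, coloured by identity to the parent, with a line of equality. Most points lie near the line, and copies of Rps15a, Rpl34, Rps13 and Rpl3 stand above it by up to 5.99 log2 units.

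By the mean over all 6 samples, the most abundant copies were Rps6-ps4, Rpl3-ps1, Rpl34-ps1, Rpl10a-ps1, Rpl15-ps3 and Rps13-ps1, and together they held 26.3% of the counts on all copies in WT and 40.9% in MMP13KO. The mean includes the MMP13KO values, so the choice itself adds to that difference, and in WT Rpl34-ps1 and Rps13-ps1 were not among the most abundant. Rps6-ps4 (chr2:75191073-75191822, minus strand, in an intron of the noncoding gene 2600014E21Rik on the opposite strand) is identical to the transcript of Rps6, the small-subunit protein phosphorylated by S6 kinases. It stood at 903, 864 and 995 normalized counts in WT and 1332, 1179 and 1135 in MMP13KO (log2 fold change 0.40 ± 0.13; edgeR, adjusted p = 0.03), beside 0.25 ± 0.16 for Rps6. Rps6-ps4 no longer had an adjusted p under 0.05 in 8 of its alternatives, among them each WT sample left out in turn. Its ratio to Rps6 was 18.7, 18.3 and 18.1 counts per 100 in WT and 20.2, 20.01 and 21.2 in MMP13KO, a small shift with no overlap. Rpl15-ps3 (chr9:22185607-22186221) and Rpl10a-ps1 (chr1:64993951-64994604) are also identical to their large-subunit parents. Rpl15-ps3 went from 157, 123 and 194 to 464, 413 and 409.6 (log2 fold change 1.44 ± 0.19, against 1.30 for Rpl15). Rpl10a-ps1 went from 189, 162 and 209 to 510.3, 405 and 429.2 (1.27 ± 0.17, against 0.75 for Rpl10a).

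The copies called higher lie on 15 chromosomes. On chromosome 9, which carries Mmp13 (chr9:7272514-7283331), 3 of 9 tested copies were called, and on X 6 of 10. The calls on X include Rpl3-ps1, Rpl3-ps2, Rpl30-ps9 and Rpl30-ps10, whose parents were singled out by their values. The shares of all genes called on these chromosomes are not given here, so these counts are not read as a result. Outside the 5 parents, 22 of 100 tested copies were called higher, beside 20.4% of all genes. The median log2 fold change of these 100 was 0.66, beside 0.10 over all genes tested. Leaving out parents picked by their values lowers the share of the rest, so nothing is read from its likeness to that of all genes. Some of these copies passed the filter through MMP13KO alone, so nothing is read from the medians either. The following examples were chosen after their values were seen, and their parents were called higher too. Rps27a-ps2, a copy of the ubiquitin fusion gene Rps27a, went from 6.73, 7.82 and 4.85 to 48.9, 38.2 and 41.7 (log2 fold change 2.72 ± 0.44, against 2.498 for the parent). It passed the filter through MMP13KO alone. Rpl39-ps, from a gene whose product lines the exit tunnel, went from 3.46, 11.3 and 3.91 to 49.2, 47.6 and 30.6 (2.72 ± 0.54, against 2.85). Rpl36a-ps2, identical to Rpl36a, rose by 2.54 ± 0.60 beside 2.64 for the parent. Rpl31-ps8, identical to Rpl31, rose by 2.48 ± 0.30 beside 1.87. Rpl5-ps1, from the gene of a protein that carries 5S ribosomal RNA, rose by 1.94 ± 0.22 beside 1.84.

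The copies furthest below their parents include several of a parent that rose. Rpl26-ps4 (chr16:17711668-17712105) stood at 18.4, 25.2 and 13.8 normalized counts in WT and 6.93, 26.3 and 8.04 in MMP13KO, and Rpl26-ps6 at 13.1, 12.8 and 15.7 and 2.38, 14.4 and 13.0. Neither passed the test, while Rpl26, a large-subunit gene near the exit tunnel, rose by 2.24 ± 0.20 on the log2 scale (edgeR, adjusted p = 5.9e-05). These copies are 94.7% and 90.1% identical to Rpl26. Rps27-ps1 (94.7% identical) stood at 6.196, 13.3 and 8.09 and 8.19, 9.20 and 13.2, with a log2 fold change of 0.07 ± 0.58 against 1.63 for Rps27. Rpl36a-ps3 rose by 0.77 ± 0.20 (edgeR, adjusted p = 0.0082), far less than Rpl36a. By sequence it lies closer to another gene, being 87.5% identical to Rpl36a and 99.7% to Rpl36al, which rose by 0.64 ± 0.16. Over the 9 copies more than 1 log2 unit below the parent the median identity was 94.7%, against 98.7% for the 15 above.

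Odorant and vomeronasal receptor genes are not used in pulp, and the copies were set against their counts. Receptor genes had 1.503, 1.75 and 4.80 counts per kilobase of exon in MMP13KO 1, 2 and 6, and 0.0946 to 0.116 in WT. In MMP13KO 1, Rpl34-ps1 exceeded that rate 1806-fold, Rpl3-ps1 1432-fold and Rps15a-ps7 1006-fold, and in MMP13KO 6, with the highest receptor rate, 270.0-fold, 125-fold and 141-fold. The median over the tested copies was 70.9-fold in MMP13KO 1 and 9.70-fold in MMP13KO 6. Of the 34 copies called higher with a known exon length, 32 exceeded it more than 5-fold in all 3 MMP13KO libraries. The 2 that did not were Rpl5-ps2, at 2.71 times the rate in MMP13KO 6, and Rpl7a-ps9, at 3.63 times. The filter and the call both ask for counts in MMP13KO, so part of this excess is set in advance. The share over all genes is not given here, and nothing is read from the count. Receptor genes were 5.22-fold higher in MMP13KO 6 than in the mean of 1 and 2 (normalized counts). The median of this ratio was 0.934 over the tested copies and 0.878 over ribosomal protein genes. It was 0.842 for Rpl34-ps1, 0.868 for Rps15a-ps7 and 0.531 for Rpl3-ps1. The filter asks for counts in at least 3 samples, so copies counted in MMP13KO 6 alone are not among those tested. What the ratio says about the source of the counts was not tested. Among the 41 copies below the filter the highest of the 6 normalized values was that of MMP13KO 6 in 27, against 29 of 117 tested copies. On unscaled counts it was 18 of the 41. Their median over the receptor rate in MMP13KO 6 was 3.47-fold. The part of such counts in the values of low copies was not tested. With counts at the receptor rate subtracted from every gene in proportion to exon length, 37 copies were called higher.

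**Figure D5:**
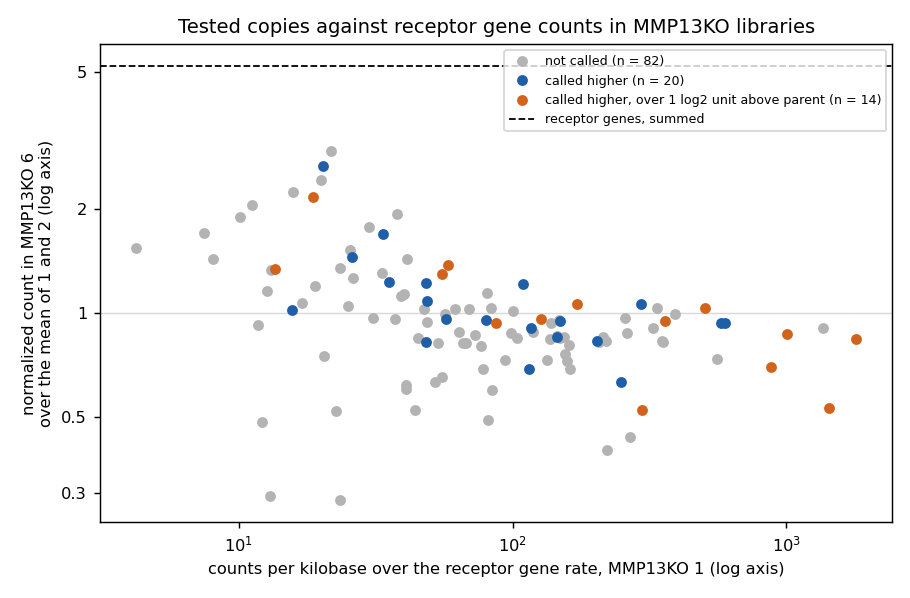
For each tested copy with a known exon length, counts per kilobase over the receptor gene rate in MMP13KO 1 (x, log axis) and normalized count in MMP13KO 6 over the mean of MMP13KO 1 and 2 (y, log axis), coloured by call, with the receptor genes' own ratio of 5.22 as a dashed line. Copies called higher and far above their parent lie at ratios from 0.523 to 2.18, below the line.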

How the data were processed

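RNA sequencing of dental pulp from 3 WT and 3 MMP13KO mice was analysed. The deposited estimated counts were made by the authors in Strand NGS from reads aligned to mm10, one column a sample, and the aligner settings and annotation release are not given in the sources used here. The deposited log2 columns hold counts that the authors scaled by DESeq size factors and centred on each gene's median, and were not used in tests. Samples were grouped by their labels.

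Estimated counts were rounded, filtered with filterByExpr by genotype, scaled with TMM factors and tested over all 24534 remaining genes with edgeR 4.0.16 (R 4.3.3) by its quasi-likelihood test, unpaired and without covariates. P-values were adjusted by Benjamini-Hochberg, and a call required an adjusted p under 0.05 and a change over 2-fold. Alternatives used DESeq2 1.42.0, limma 3.58.1 (prior count of 2), other factors and filters, a GC correction, subtraction of receptor gene counts and each sample left out in turn. Log2 ratios of copy to parent used a pseudocount of 0.5. Copies were aligned to parent transcripts of GENCODE M21 (GRCm38), from which positions, exon lengths and sequences were taken.

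Named copies were the 6 with the highest mean, those on in 1 genotype and off in the other, the 6 with the smallest adjusted p in each direction, the 4 furthest above and below their parent, Rpl34-ps1, and those next to the threshold, each with its parent. Copies named beyond this rule were picked after their values were seen. The copies, lists and tests were chosen with earlier results of these data known. Depth was 21561420 to 29980236 estimated counts a library, and floors of 3 counts cover counting error only. Values of 1 copy and some sequences are not reported here.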

Additional observations from a re-analysis of the deposited data

How the results depend on the processing

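Higher calls among the copies numbered 24 to 47 under the alternatives run, from 35, except for 15 with 10 counts required in every sample, where fewer copies are tested, and 21 in a test against a 2-fold change. Without each sample in turn they ranged from 24 to 38. Lower calls ranged from 0 to 2, the 2 without MMP13KO 1 (Rps13-ps2 at -1.14 and Rps2-ps11 at -1.02). Ribosomal protein genes called higher numbered 43 after GC correction, from 24. The median log2 fold change of the copies, 0.758, was 0.552 with 10 counts in every sample, 1.13 after GC correction and 0.950 with upper-quartile factors, and ranged from 0.548 (without MMP13KO 1) to 0.822 without each sample in turn. The median of all genes, 0.104, was 0.315 with upper-quartile factors, 0.215 with library totals and 0.191 after GC correction, below that of the copies each time. It was 1.11 in DESeq2 and 1.30 without a filter, over 49715 genes in place of 24534, above the 0.836 and 0.767 of the copies. On/off copies numbered 1, but 0 with 20 counts for on, 2 with the 10-fold criterion added after seeing the data, and 1 to 5 without each sample in turn. The difference in library share of 0.0286 percentage points was 0.0488 with satellite and the 10 most abundant genes left out. The cause of these shifts was otherwise not tested.

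Of 643 alternative log2 fold changes over 44 named genes, 603 kept their direction and their side of an adjusted p of 0.05, at any fold. Of the rest, 10 no longer passed that threshold, 12 newly passed it and 18 turned sign. The 18 were all in genes that did not pass it, with values near 0. Rps27-ps1 was -0.0394 without a filter and ranged from -0.20 to 0.15 without each sample in turn. Rps13-ps4 was -0.0063 without a filter and ranged from -0.13 to 0.23. Rps13-ps5 was 0.14 after GC correction, 0.013 with library totals and 0.0309 with upper-quartile factors, and ranged from -0.677 to 0.0545. Rpl27, parent of a copy next to the threshold, was -0.0141 in DESeq2 and -0.0817 without a filter, and ranged from -0.0787 to 0.0769. No paired analysis was possible because the genotypes share only replicate number 2.

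With 3 animals a genotype, no exact permutation test can fall below 0.1. Estimated counts do not show how reads were divided among near-identical genes, and neither reads nor mapping quality were analysed here. Copies with few counts move with 1 or 2 libraries, and MMP13KO 6, with 46.1% satellite counts, is the shallowest library for other genes.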
